A study of Mus musculus with 6 samples.

Results

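The proteasome subunits were taken as the 44 rows, of 56534 in the deposited gene table, whose symbol begins with Psma, Psmb, Psmc, Psmd, Psme or Psmf and ends in a number. They were 7 alpha and 10 constitutive or inducible beta subunits of the 20S core, 2 tissue-restricted core subunits, 6 ATPases and 11 non-ATPases of the 19S cap, 3 chaperones of cap assembly, 4 subunits of other activators and 1 regulator, PI31. The tissue was liver of C57BL/6 mice fed a high-fat diet, with 60% of energy from fat, for 16 weeks. LKO livers came from CD36-/- mice, which the series describes as lacking CD36 in hepatocytes, and CON livers came from wild-type mice on the same diet. CD36 is a membrane protein that takes up long-chain fatty acids. There were 3 RNA sequencing libraries in each group, and the promoter behind the deletion and the sex and age of the mice are among the details not given in the sources used here. Values of a group's libraries are listed in the order of their numbers. Nothing in the labels says that the libraries of a group are from separate animals, so p-values describe the spread between libraries, some of which may be technical.

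The proteasome degrades proteins tagged with ubiquitin. Its 20S core is a barrel of stacked alpha and beta rings with the cutting sites inside; the 19S cap binds the ubiquitin chain, removes it, unfolds the protein with a ring of ATPases and threads it into the core. Interferon-gamma induces other catalytic beta subunits that replace the constitutive ones in newly built particles and favour peptides for MHC class I, and the transcription factor NRF1 (Nfe2l1) raises all subunits together when proteasome activity falls short. In hepatocytes the proteasome also clears surplus apolipoprotein B and other proteins drawn back from the endoplasmic reticulum.

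Cd36, the deleted gene, measured 2.73, 3.70 and 10.2 FPKM in LKO, against 62.0, 26.5 and 19.7 FPKM in CON (log2 fold change -2.50, limma adjusted p = 0.163, range 0.0138 to 0.508 over the settings tried and 0.0165 without LKO 3). FPKM are fragments scaled to gene length and to all mapped fragments, so they carry no count, and the depth in reads is unknown. Between 10614 and 10768 genes reached 1 FPKM in the LKO libraries, against 10870 to 11311 in the CON libraries. The libraries differed in ways that touch the subunits. Deviations of single genes ran with gene length at a Spearman rho of -0.33 and -0.30 in LKO 1 and LKO 2 and 0.21 in LKO 3, against 0.27, 0.10 and 0.29 in CON 1, CON 2 and CON 3, so LKO 3 resembled the CON libraries in this. Mitochondrial transcripts took 10.1% of the FPKM in LKO 2 and 3.88% to 6.18% in the other libraries, and major urinary protein transcripts took 23.9% to 29.4% in the LKO libraries, against 6.22% to 22.1% in the CON libraries. Over the 11104 genes with a mean of at least 1 FPKM, the median log2 fold change of LKO over CON was -0.23, and differences of subunits are therefore also given relative to that median ("relative log2 fold change"). Hepatocyte markers such as Alb and Apob were abundant in all libraries (8 markers summed to 43899 to 54173 FPKM in LKO, against 48530.2 to 68332 FPKM in CON). Germ cell markers of the testis, where a tissue-restricted core subunit is used, summed to at most 0.26 FPKM in LKO and 0.33 FPKM in CON.

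Of the 44 subunit genes, 42 had a mean of at least 1 FPKM and were tested. No subunit differed between LKO and CON past an adjusted p of 0.05 (limma, 0 of 42, against 0.00901% of all genes tested), and the smallest adjusted p was 0.187. At an unadjusted p under 0.05, 1 was higher in LKO (Psmb10, against 3.25% of all genes) and 1 lower (Psmd1, against 18.9%). The median log2 fold change was -0.03, or 0.20 relative to all genes, and 32 of 42 lay above the all-gene median, which by construction 50.0% do. That relative median was 0.08 (26 of 42 above) with the trend of the values with gene length removed and -0.0045 with no filter on low values. Members of up to 2000 bases had a median log2 fold change of -0.01, against -0.02 over all genes of such lengths. Longer members had a median of -0.09, against -0.30 over all longer genes. The LKO and CON libraries did not overlap for 5 subunits that were higher in LKO (Psma2, Psmb4, Psmb6, Psmb10 and Psmc4, against 3.92% of all genes) and for none that was lower, against 24.3% of all genes. With the libraries scaled by median ratios, which moved the all-gene median to 0.01, 14 subunits had an unadjusted p under 0.05 in the higher direction (against 10.2%) and 0 in the lower (against 7.96%), and 0 passed after adjustment.

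A single library changed these counts. Without LKO 3, 3 subunits passed and were lower in LKO, namely Psmd1, Psmd11 and Psme4, in a fit that called 23.6% of all genes and in which the group coincides with the length trend. With that trend taken out of each library and LKO 3 left out, 4 passed, with Psma2, Psma3 and Psmf1 higher and Psmd1 lower (against 12.0% of all genes). Weighting the libraries by their spread gave 6, with Psma3, Psmb4, Psmb6 and Psmb10 higher and Psmd1 and Psme4 lower (against 27.7% of all genes). Without LKO 2, 13 subunits did not overlap in the higher direction, against 6.91% of all genes, and 38 of 42 lay above the median. Without CON 1, 25 of 42 lay above it and the relative median was 0.12.

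**Figure D1:**
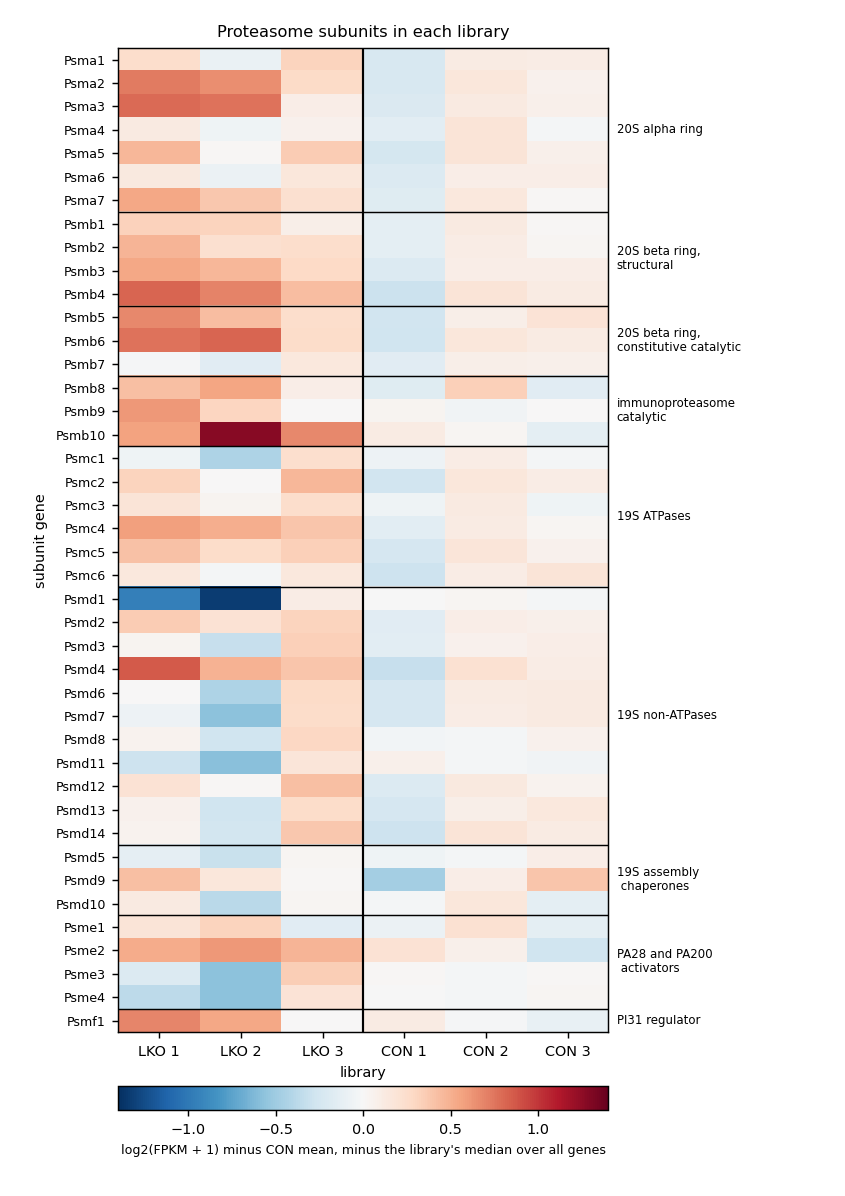
Each row is a tested subunit gene and each column a library, LKO on the left and CON on the right, and colour gives log2(FPKM + 1) minus the CON mean, after subtraction of the library's median over all genes. Cells of the constitutive 20S core are red or near white in LKO 1, range from pale blue to red in LKO 2 and are pale red in LKO 3, while most rows of the 19S non-ATPases are blue in LKO 2 and red in LKO 3, and Psmd1 is dark blue in LKO 1 and LKO 2.

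The levels of core and cap genes overlapped, with a higher median in the core. Psmb6, which carries the caspase-like site of the core, was highest at a mean of 201 FPKM over the 6 libraries, and Psmd10, a cap assembly chaperone also known as gankyrin, was lowest of the 42 at 6.16 FPKM, a 32.7-fold span on this length-corrected scale. The 14 constitutive core genes had a median of 115 FPKM and spanned 6.76-fold, down to Psma2 at 29.7 FPKM, although their proteins are built into the core in equal numbers. The 17 structural cap genes had a median of 54.4 FPKM, from Psmd4 at 117 FPKM to Psmd1 at 26.7 FPKM. The summed FPKM of all members was 3216, 2560 and 3144 in LKO, against 2680, 2919 and 2976 in CON, and the groups overlapped. Psma8, the alpha subunit of male germ cells, was at 0.11, 0.13 and 0.32 FPKM in LKO, against 0.33, 0.66 and 0.19 FPKM in CON. Psmb11, the catalytic subunit of thymic cortical epithelium, was listed at 0 in all LKO libraries, CON 2 and CON 3 and at 0.01 FPKM in CON 1.

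The alpha subunits form the outer rings of the core and its gate. All 7 lay above the all-gene median, with a median relative log2 fold change of 0.27 (0 of 7 passed). Psma3 had the highest log2 fold change of the class. It was at 119, 103 and 78.0 FPKM in LKO, against 72.3, 81.3 and 83.4 FPKM in CON; LKO 1 and LKO 2 were above every CON library and LKO 3 was within their range (log2 fold change 0.31, SE 0.20, limma adjusted p = 0.348). Psma2, almost equal in its difference, was at 38.0, 31.8 and 29.5 FPKM in LKO, against 23.7, 27.8 and 27.6 FPKM in CON, with no overlap between the groups (log2 fold change 0.31, SE 0.17, adjusted p = 0.297). Psma4 had the lowest log2 fold change of the class, at 99.6, 77.1 and 102 FPKM in LKO, against 100.3, 113 and 104 FPKM in CON, with LKO 1 and LKO 2 below the CON libraries and LKO 3 within their range (log2 fold change -0.19, SE 0.18, adjusted p = 0.511). The other 4, Psma1, Psma5, Psma6 and Psma7, overlapped between groups. The pattern was led by LKO 1: the class median, relative to all genes of the library, was 0.47, 0.01 and 0.22 in LKO 1, LKO 2 and LKO 3, against -0.20, 0.15 and 0.07 in CON 1, CON 2 and CON 3. With the length trend of each library removed, 4 of 7 lay above the median and the class median was 0.06. Psma2 and Psma3 then had relative values of 0.57 and 0.56. Their deposited lengths are 2911 and 2846 bases, against a median length of 1239 bases in the class. Without CON 1 the class median was 0.15, with 5 of 7 above the median.

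The 4 structural beta subunits, which hold no cutting site, all lay above the all-gene median, with a class median of 0.37, and every LKO library had a positive class median (0.51, 0.39 and 0.27 in LKO, against -0.17, 0.11 and 0.06 in CON). Psmb4 was at 208, 171 and 172 FPKM in LKO, against 118, 146 and 149.7 FPKM in CON. All 3 LKO libraries exceeded the CON range (log2 fold change 0.41, SE 0.18, limma adjusted p = 0.232). Psmb1 had the lowest log2 fold change of the class, at 175, 154 and 159 FPKM in LKO, against 155, 167 and 165 FPKM in CON, and the groups were nearly equal (log2 fold change 0.0046, SE 0.16, adjusted p = 0.989). After removal of the length trend the class median was 0.24, with 3 of 4 above the all-gene median and Psmb2 at -0.02.

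Of the 3 constitutive catalytic subunits, Psmb6 was the only one whose groups did not overlap. It was at 255, 234 and 193 FPKM in LKO, against 151, 183 and 189.7 FPKM in CON (log2 fold change 0.38, SE 0.19, limma adjusted p = 0.265). Psmb5, the chymotrypsin-like site, was at 180.2, 135 and 144 FPKM in LKO, against 114, 130.1 and 149.5 FPKM in CON; LKO 1 was above all CON libraries and LKO 2 and LKO 3 were within their range (log2 fold change 0.22, SE 0.19, adjusted p = 0.484). Psmb7, the trypsin-like site, was at 103, 82.4 and 124 FPKM in LKO, against 114, 119.5 and 127 FPKM in CON, with LKO 1 and LKO 2 below the CON libraries and LKO 3 among them (log2 fold change -0.24, SE 0.19, adjusted p = 0.449). Psmb5 and Psmb6 are short genes of 899 and 966 bases by deposited length, and Psmb7 is listed at 2849 bases. After removal of the length trend the relative values were 0.13, 0.31 and 0.01 for Psmb5, Psmb6 and Psmb7, against 0.45, 0.61 and -0.01 before. Psmb7 shares 405 of its exon bases with Nek6, a gene on the opposite strand at 15.7 FPKM. The strand setting of the counting is not given in the sources used here, so the part of its level from those bases is uncertain.

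The inducible catalytic subunits replace these 3 in the immunoproteasome. Their FPKM were lower than those of the subunits they replace, at means of 38.0, 15.4 and 21.1 over the 6 libraries for Psmb8, Psmb9 and Psmb10, against 142, 201 and 112 for Psmb5, Psmb6 and Psmb7. Psmb10, which takes the place of Psmb7, had the highest log2 fold change of all members. It was at 21.2, 31.3 and 24.7 FPKM in LKO, against 18.98, 15.7 and 14.9 FPKM in CON, and the lowest LKO library, LKO 1, was just above the highest CON library, CON 1 (log2 fold change 0.60, SE 0.20, limma unadjusted p = 0.0175, adjusted p = 0.187, range 0.0472 to 0.508 over the settings). Its relative value was 0.83, and 0.64 with the length trend removed, and it stayed between 0.61 and 0.97 in the 18 other settings. Psmb8, which replaces Psmb5, was at 41.9, 40.9 and 35.8 FPKM in LKO, against 33.9, 43.1 and 32.4 FPKM in CON, and CON 2 held the highest value (log2 fold change 0.12, SE 0.18, adjusted p = 0.683). Psmb9, which replaces Psmb6, was at 19.9, 13.98 and 13.8 FPKM in LKO, against 16.2, 13.5 and 15.1 FPKM in CON, and the groups overlapped apart from a high LKO 1 (log2 fold change 0.07, SE 0.20, adjusted p = 0.84). Psmb8 and Psmb9 lie beside the peptide transporter genes in the MHC region of chromosome 17, and Psmb10 on chromosome 8. Psmb9 shares 212 of its exon bases with the opposite-strand gene Tap1 (11.0 FPKM), so the part of its values from those bases is uncertain.

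**Figure D2:**
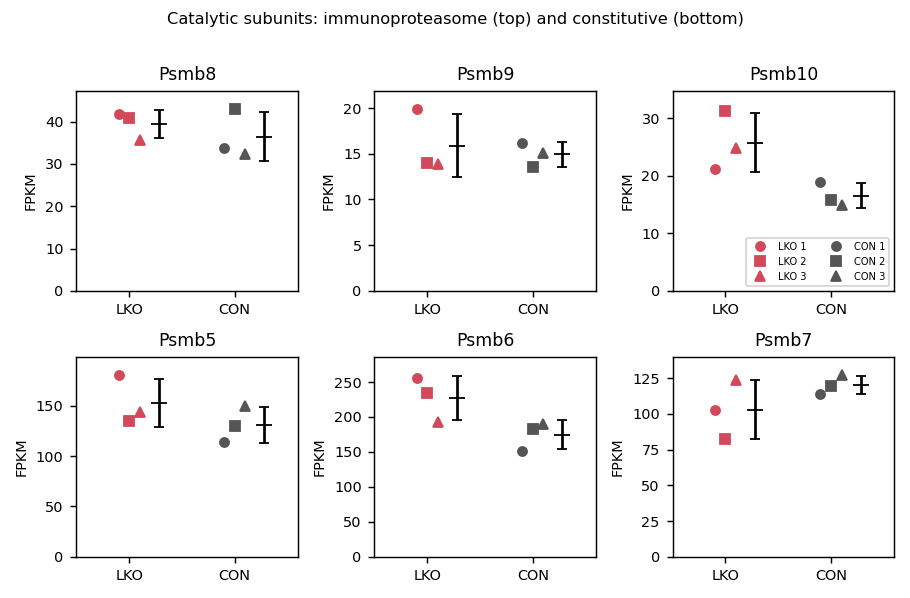
FPKM of the inducible subunits (top) and of the constitutive subunits they replace (bottom, in the same order); symbols are libraries, LKO left and CON right, and the black bar is the mean with its SD (n = 3). Psmb10 and Psmb6 are the panels in which all LKO symbols lie above all CON symbols, while Psmb7 has LKO 1 and LKO 2 below the CON libraries.

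A ratio of inducible to constitutive subunit within a library does not depend on library scale. Psmb7 and Psmb9 share 405 and 212 exon bases with the opposite-strand genes Nek6 and Tap1. The ratios that hold them are uncertain by the reads of those bases, whose share was not tested. Psmb10 over Psmb7 was 0.206, 0.380 and 0.200 in LKO, against 0.167, 0.131 and 0.117 in CON. The groups did not overlap, the log2 difference was 0.87, and an exact two-sided permutation test had p = 0.1 (0.3 adjusted over the 3 ratios), the lowest value possible with 3 libraries a group. Removal of the length trend left 0.63 with overlapping groups (exact p = 0.2), and without LKO 2, which has the highest ratio, the difference was 0.57. Psmb8 over Psmb5 was 0.232, 0.303 and 0.248 in LKO, against 0.298, 0.331 and 0.217 in CON (log2 difference -0.10, exact p = 0.8). Psmb9 over Psmb6 was 0.0778, 0.0597 and 0.0715 in LKO, against 0.107, 0.0739 and 0.0793 in CON (log2 difference -0.31, exact p = 0.2, 0.3 adjusted). Both of these turned positive, to 0.17 and 0.0081, when the length trend was removed, so their direction depends on the processing.

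Leukocytes use the immunoproteasome more than hepatocytes do. Of 12 leukocyte markers 8 had a mean under 1 FPKM and Ly6g was at 0 in every library. Their summed level was 27.3, 52.2 and 53.6 FPKM in LKO, against 66.5, 65.1 and 40.2 FPKM in CON, most of it Lyz2, and Ptprc (CD45) was at 0.97 to 1.70 FPKM in LKO, against 1.75 to 1.86 FPKM in CON. The 6 Kupffer cell markers summed to 82.0, 165 and 150.3 FPKM in LKO, against 150.3, 162 and 107 FPKM in CON. Stellate cell markers summed to 102, 112 and 77.3 FPKM in LKO, against 82.6, 81.7 and 85.5 FPKM in CON, and all 6 lay above the all-gene median (median 0.40, or 0.52 without the length trend; 0 passed). Cholangiocyte markers summed to 56.3, 74.9 and 34.1 FPKM in LKO, against 51.5, 34.7 and 29.4 FPKM in CON, and the 3 tested lay above that median (median 0.39, or 0.35 without the length trend; 0 passed). The Kupffer, stellate and cholangiocyte sums were each highest in LKO 2, the library with the highest Psmb10. In LKO 2 they came mostly from Clec4f at 85.3 FPKM, Dcn at 93.3 FPKM and Spp1 at 69.6 FPKM. The other Kupffer cell markers, Adgre1, Cd5l, Vsig4, Timd4 and Marco, were each highest in a CON library. The part of any of these cell types in the subunit values was not tested. Endothelial markers summed to 40.1 to 55.2 FPKM in LKO, against 30.9 to 87.3 FPKM in CON. In bulk tissue, fewer cells of a type cannot be told apart from less RNA per cell. Of 10 partners of the immunoproteasome in the interferon-gamma response and antigen processing, 0 passed, 2 were lower (against 18.9% of all genes) and 0 higher (against 3.25%) at an unadjusted p under 0.05, and 5 lay above the all-gene median. Erap1, which trims peptides for MHC class I, was at 5.25, 4.96 and 10.1 FPKM in LKO, against 17.7, 10.4 and 10.3 FPKM in CON (log2 fold change -0.85, limma adjusted p = 0.197). The class I gene H2-D1, whose reads may be shared with its paralogs, was at 313, 265 and 482 FPKM in LKO, against 495, 637 and 519 FPKM in CON (adjusted p = 0.205).

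Promoter sequence is shown for the 2 constitutive catalytic subunits with a match to the antioxidant response element, the site class that NRF1 binds, and for the member with the highest log2 fold change. Windows of 250 bases before the RefSeq start were found for 37 of the 44 members and searched on both strands. They are from GRCm38.p6, a later build than the mm9 that the submitters' notes name for the deposited values. Psmb7, the other constitutive catalytic subunit, had no window and was not searched. The response element core TGACNNNGC was found in 5 of the 37 (Psmb5, Psmb6, Psmc6, Psmd9 and Psmd12), while 11.5% of 27025 genes hold it. The interferon-stimulated element core, GAAA followed after a gap of 2 bases by another GAAA, was in 3 (Psmb3, Psmd4 and Psmd9), against 3.46% of genes, the gamma-activated site TTCNNNGAA in 1 (Psmb8), against 8.13%, and CCAAT in 14, against 37.5%. Capitals mark the response element core, and in these windows it overlaps none of the other motifs. The windows are chr14:54617996-54618245, minus strand, for Psmb5, chr11:70525107-70525356, plus strand, for Psmb6 and chr8:105938393-105938642, minus strand, for Psmb10, each ending at the base before the start.
Psmb5: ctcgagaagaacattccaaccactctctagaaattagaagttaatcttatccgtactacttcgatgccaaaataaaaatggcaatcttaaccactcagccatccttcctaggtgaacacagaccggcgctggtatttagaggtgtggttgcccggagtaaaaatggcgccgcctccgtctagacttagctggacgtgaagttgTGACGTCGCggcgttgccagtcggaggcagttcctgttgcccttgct
Psmb6: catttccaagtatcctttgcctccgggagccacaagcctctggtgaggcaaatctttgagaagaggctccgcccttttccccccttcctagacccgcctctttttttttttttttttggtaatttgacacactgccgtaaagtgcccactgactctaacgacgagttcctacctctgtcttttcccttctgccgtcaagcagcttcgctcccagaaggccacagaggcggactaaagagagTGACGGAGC
Psmb10: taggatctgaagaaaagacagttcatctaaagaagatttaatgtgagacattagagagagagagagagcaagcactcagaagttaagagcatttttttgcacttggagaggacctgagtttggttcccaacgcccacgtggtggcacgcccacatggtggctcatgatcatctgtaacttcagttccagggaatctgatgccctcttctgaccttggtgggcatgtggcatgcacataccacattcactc
The match in Psmb5 begins 47 bases before the start, and the match in Psmb6 takes the last 9 bases. None of the 4 motifs is in the Psmb10 window. A match describes letters only, and no factor was measured at these windows.

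The 6 cap ATPases, which unfold the substrate and open the core, had a median relative log2 fold change of 0.20, with 5 of 6 above the all-gene median and 0 passing. Psmc4 had the highest log2 fold change of the class, at 75.9, 64.1 and 71.4 FPKM in LKO, against 55.9, 59.8 and 60.1 FPKM in CON, and the groups did not overlap (log2 fold change 0.26, SE 0.16, limma adjusted p = 0.332). Psmc1 had the lowest log2 fold change, at 67.7, 46.1 and 88.9 FPKM in LKO, against 82.2, 82.5 and 80.2 FPKM in CON. LKO 2 was lowest, LKO 1 was also below the CON libraries, and LKO 3 was above them (log2 fold change -0.32, SE 0.24, adjusted p = 0.426). LKO 2 was the lowest of the LKO libraries for all 6, where the same held for 54.8% of all genes tested and 34 of the 42 subunits. The class median was 0.25, 0.02 and 0.29 in LKO, against -0.19, 0.12 and 0.05 in CON, and 0.13 in the group difference once the length trend was removed. Psmc3 shares 215 exon bases with the opposite-strand gene Slc39a13 (5.08 FPKM).

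The 11 non-ATPases of the cap build its scaffold, its lid and its ubiquitin receptors. Their median relative log2 fold change was 0.01, with 7 of 11 above the all-gene median, and the class median was 0.05, -0.28 and 0.29 in LKO, against -0.19, 0.09 and 0.09 in CON. LKO 2 was the lowest of the 3 LKO libraries for all 11 and the lowest of all 6 libraries for 10 of 11, where the same held for 54.8% and 48.6% of all genes tested. In 7 of 11 (Psmd1, Psmd3, Psmd6, Psmd7, Psmd8, Psmd11 and Psmd13) both LKO 1 and LKO 2 lay below the CON libraries and LKO 3 did not, against 22.3% of all genes and 13 of the 42 subunits. Without LKO 2 the class median was 0.17, with 9 of 11 above the all-gene median. Without LKO 3 it was -0.12, with 3 of 11 above.

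Psmd1, the largest scaffold subunit of the cap base and a docking site for ubiquitin receptors, had the lowest log2 fold change of all members. It was at 14.6, 9.68 and 34.0 FPKM in LKO, against 35.9, 32.6 and 33.5 FPKM in CON. LKO 1 and LKO 2 were below every CON library and LKO 3 was within the CON range (log2 fold change -0.96, SE 0.39, limma unadjusted p = 0.0412, adjusted p = 0.215, range 0.0143 to 0.63 over the settings, with the low end without LKO 3). Its relative value was -0.73, -0.69 without the length trend, and between -1.14 and -0.39 in the 18 other settings. A same-strand locus, Gm21972, shares 301 exon bases with Psmd1 and was at 1.09 FPKM, so reads may be split between them. Psmd2, the other scaffold subunit of the base, was at 82.2, 65.2 and 85.9 FPKM in LKO, against 70.1, 74.5 and 78.5 FPKM in CON, and the groups overlapped (log2 fold change 0.05, SE 0.18, adjusted p = 0.859). Psmd4, a ubiquitin receptor, had the highest log2 fold change of the class, at 161, 109.8 and 124 FPKM in LKO, against 86.3, 112 and 111 FPKM in CON (log2 fold change 0.34, SE 0.21, adjusted p = 0.329). LKO 1 and LKO 3 were above the CON libraries and LKO 2 among them. Psmd11, a lid subunit, was at 29.1, 20.7 and 43.3 FPKM in LKO, against 46.4, 38.2 and 40.4 FPKM in CON (log2 fold change -0.47, SE 0.27, adjusted p = 0.305). Psmd14, the deubiquitinase of the lid, was at 30.5, 21.6 and 41.6 FPKM in LKO, against 29.4, 36.7 and 37.3 FPKM in CON, overlapping (log2 fold change -0.18, adjusted p = 0.665). Psmd13 shares 342 exon bases with Sirt3 on the other strand (54.9 FPKM) and is uncertain.

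The window before the start of Psmd1 is shown as that of the member with the lowest log2 fold change (chr1:86064369-86064618, plus strand, GRCm38.p6, RefSeq). It holds none of the 4 motifs searched.
Psmd1: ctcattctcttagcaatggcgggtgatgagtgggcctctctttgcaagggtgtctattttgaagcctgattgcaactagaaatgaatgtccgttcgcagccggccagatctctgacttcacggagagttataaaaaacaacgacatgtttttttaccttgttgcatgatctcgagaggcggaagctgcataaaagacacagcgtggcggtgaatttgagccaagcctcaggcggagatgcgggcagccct

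**Figure D3:**
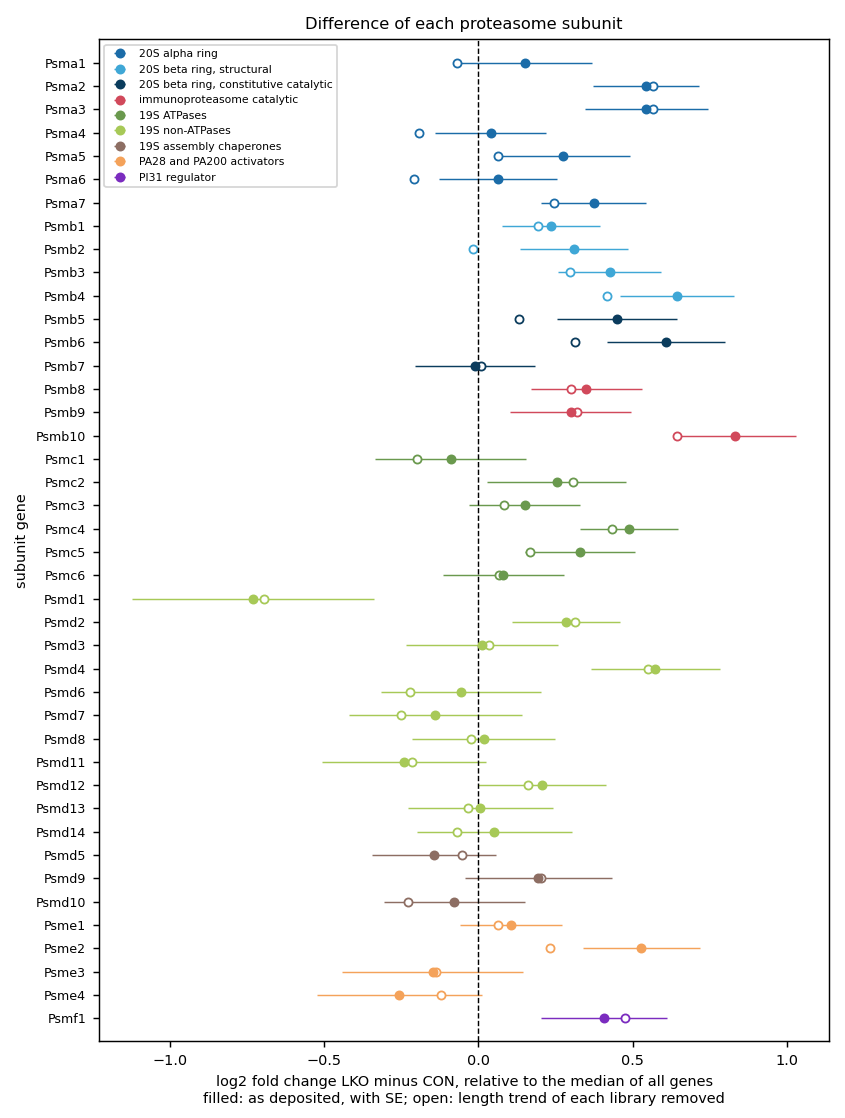
Log2 fold change of LKO over CON for each tested subunit relative to the all-gene median, coloured by class; filled points are values as deposited with their standard error (limma), and open points are values with the length trend of each library removed. Filled points of the 20S beta subunits lie to the right of the line but for Psmb7 at -0.01, points of the 19S non-ATPases lie on both sides, and Psmb10 at 0.83 and Psmd1 at -0.73 are the ends of the range.

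The assembly chaperones of the cap base, which leave the finished particle, were near or below the all-gene median (median -0.08, 1 of 3 above). Psmd9 was at 24.7, 18.0 and 19.9 FPKM in LKO, against 15.8, 21.4 and 28.1 FPKM in CON and spread more within CON than between the groups (log2 fold change -0.03, SE 0.24, limma adjusted p = 0.939). Psmd5 was at 13.0, 9.89 and 15.7 FPKM in LKO, against 16.8, 15.3 and 17.9 FPKM in CON, with LKO 1 and LKO 2 below the CON libraries and LKO 3 among them (log2 fold change -0.37, SE 0.20, adjusted p = 0.29). Psmd10 was at 6.39, 3.63 and 6.40 FPKM in LKO, against 7.13, 7.26 and 6.14 FPKM in CON, with a low LKO 2. Psmd9 shares 1849 exon bases with Gm26745, a gene on the opposite strand at 0.955 FPKM, so part of its level is uncertain.

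Among the other activators, Psme1 and Psme2 form PA28, which opens the core without ubiquitin and, like the inducible beta subunits, answers to interferon-gamma. Psme2 was at 91.9, 86.6 and 95.8 FPKM in LKO, against 90.4, 73.4 and 61.4 FPKM in CON; CON 1 lay among the LKO libraries and CON 2 and CON 3 below them (log2 fold change 0.30, SE 0.19, limma adjusted p = 0.348). Its gene is short, at 962 bases, and its relative value was 0.53, or 0.23 without the length trend. Its partner Psme1 was at 69.6, 67.9 and 59.0 FPKM in LKO, against 71.2, 78.2 and 65.2 FPKM in CON (log2 fold change -0.12, adjusted p = 0.642). Psme1 shares 14 exon bases with Emc9 on the other strand (23.8 FPKM). Psme3, which forms a nuclear activator ring, was at 15.6, 10.2 and 24.7 FPKM in LKO, against 22.4, 19.3 and 21.2 FPKM in CON (log2 fold change -0.38, adjusted p = 0.429). Psme4, the single-chain activator PA200 and at 6491 bases the longest member, was at 15.0, 11.2 and 24.3 FPKM in LKO, against 24.1, 21.2 and 23.5 FPKM in CON (log2 fold change -0.48, SE 0.27, adjusted p = 0.297). For both, LKO 1 and LKO 2 lay below the CON libraries and LKO 3 above them. Psmf1, the regulator PI31, was at 17.4, 13.7 and 11.2 FPKM in LKO, against 14.02, 11.3 and 11.4 FPKM in CON, with overlapping groups (log2 fold change 0.18, SE 0.20, adjusted p = 0.591).

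Log2 fold changes ran with gene length, taken as deposited. The lengths of the transcripts in use were not determined, so removal of the trend rests on the deposited lengths. Subunit genes are short: the 42 had a median length of 1931 bases (859 to 6491), against 3010 bases over all genes tested. Across the members, log2 fold change ran with length at a Spearman rho of -0.35, and across all genes at -0.30; genes are not independent replicates, and these are descriptions. The 26 members of up to 2000 bases had a median log2 fold change of -0.01, against -0.02 over the 3248 genes of such lengths. The 16 longer members had a median of -0.09, against -0.30 over 7856 genes. With the trend removed in each library, the relation over the members was 0.08, their median relative log2 fold change was 0.08 (26 of 42 above the all-gene median), and 0 passed. A total of 7 then had an unadjusted p under 0.05 in the higher direction, against 8.93% of all genes (Psma2, Psma3, Psmb4, Psmb10, Psmc4, Psmd2 and Psmd4), and 0 in the lower, against 8.47%. The groups did not overlap in the higher direction for 10 of 42, against 12.0%, and in the lower direction for 0, against 11.8%. The 14 constitutive core genes had a median of 0.16 in this form and 0.34 before it, the inducible subunits 0.32 and 0.35, and the non-ATPases -0.03 and 0.01.

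**Figure D4:**
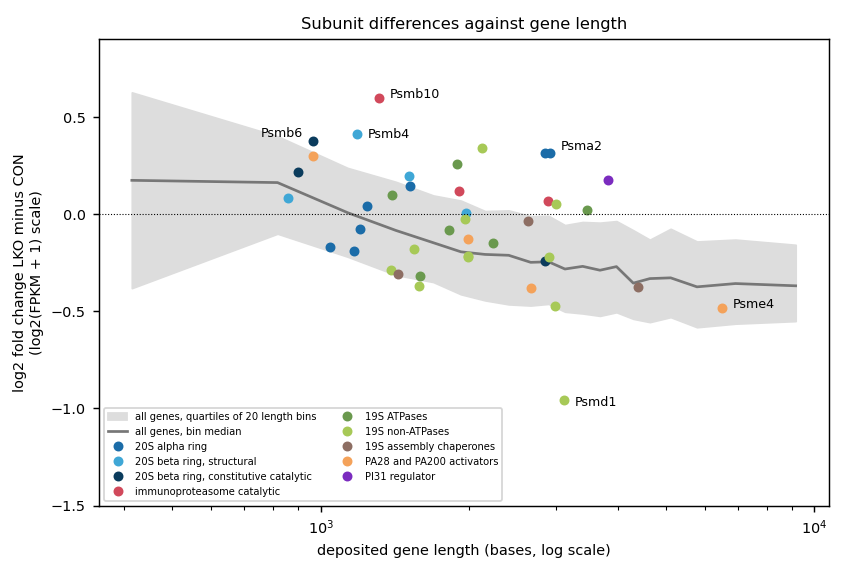
Log2 fold change of LKO over CON against gene length (bases, log axis) for the 42 tested subunits, coloured by class; the grey line and band are the median and quartiles of all 11104 genes in 20 bins of length. Short core subunits lie on both sides of the median line, with Psma4 and Psma6 in the lower part of the band and Psmb4 above it, and Psmd1 lies far below it.

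Genes that build and serve the particle were read from lists. All 5 assembly chaperones of the 20S core lay above the all-gene median (median 0.22, or 0.28 without the length trend; 0 passed, and 0 in either direction had an unadjusted p under 0.05). Psmg4, which helps to assemble the alpha ring, was at 33.0, 30.8 and 19.1 FPKM in LKO, against 14.9, 20.6 and 21.3 FPKM in CON, with LKO 1 and LKO 2 above the CON libraries and LKO 3 within their range (log2 fold change 0.50, SE 0.25, limma adjusted p = 0.266). Its partner Psmg3 was at 21.6, 15.1 and 13.9 FPKM in LKO, against 14.3, 12.2 and 15.1 FPKM in CON (adjusted p = 0.465), and Psmg1 at 17.9, 14.9 and 13.8 FPKM in LKO, against 16.9, 15.5 and 16.1 FPKM in CON (adjusted p = 0.837). Pomp, the maturation protein of the core, was at 228, 166 and 231 FPKM in LKO, against 202, 209.6 and 214 FPKM in CON, with LKO 2 below and LKO 1 and LKO 3 above the CON libraries.

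The NRF1 route is known to raise subunit genes together. Of its 6 genes, 2 lay above the all-gene median, the median relative log2 fold change was -0.35 (-0.28 without the length trend), 3 were lower in LKO at an unadjusted p under 0.05 (against 18.9% of all genes) and 0 passed after adjustment. Nfe2l1, the transcription factor itself, was at 29.7, 25.8 and 41.4 FPKM in LKO, against 73.3, 51.7 and 51.2 FPKM in CON, with no overlap (log2 fold change -0.85, SE 0.24, limma unadjusted p = 0.00736, adjusted p = 0.179). Ngly1, the glycanase that frees NRF1 of its sugars, was at 7.84, 6.40 and 9.87 FPKM in LKO, against 13.0, 12.8 and 13.1 FPKM in CON, also with no overlap (log2 fold change -0.64, SE 0.19, adjusted p = 0.179). Ddi2, the protease that cuts NRF1 to its active form, was at 17.3, 14.8 and 27.7 FPKM in LKO, against 40.3, 25.9 and 29.6 FPKM in CON, with LKO 3 inside the CON range (log2 fold change -0.68, SE 0.27, adjusted p = 0.212). Non-overlap in the lower direction held for 24.3% of all genes. Nfe2l1, Ngly1 and Ddi2 are 4654, 3296 and 9553 bases long, against a median of 3010 bases over all genes tested. Their relative values were -0.62, -0.41 and -0.45, and -0.52, -0.37 and -0.31 with the length trend removed.

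Receptors, deubiquitinases and adaptors that bind the particle numbered 14 found of 15 listed, with 5 above the all-gene median, 4 lower (against 18.9% of all genes) and 0 higher (against 3.25%) at an unadjusted p under 0.05, and 0 passing. The ligase Ube3c was at 2.84, 1.81 and 5.63 FPKM in LKO, against 8.04, 5.21 and 6.29 FPKM in CON (limma adjusted p = 0.207), and the adaptor Ecpas at 6.87, 6.46 and 12.1 FPKM in LKO, against 11.5, 14.6 and 13.1 FPKM in CON (adjusted p = 0.214). Both overlapped between the groups, through LKO 3. Of 5 tested ubiquitin precursor and activating enzyme genes, 4 lay above the median, with none at an unadjusted p under 0.05. Rps27a, a fusion of ubiquitin and a ribosomal protein, was at 253, 293 and 161 FPKM in LKO, against 122, 173 and 161 FPKM in CON (log2 fold change 0.60, SE 0.26, adjusted p = 0.23). The E1 enzyme Uba1 was at 33.8, 25.4 and 43.0 FPKM in LKO, against 43.0, 41.4 and 45.6 FPKM in CON (adjusted p = 0.316). Of 8 adaptors of the unfoldase p97, 5 lay above the median and none had an unadjusted p under 0.05. Among them Faf2 was at 10.2, 6.74 and 13.3 FPKM in LKO, against 14.9, 13.5 and 14.8 FPKM in CON (adjusted p = 0.244), Ubxn1 at 173, 129 and 102 FPKM in LKO, against 109.9, 96.2 and 93.7 FPKM in CON (adjusted p = 0.301) and Faf1 at 4.41, 3.17 and 5.87 FPKM in LKO, against 5.97, 5.35 and 6.64 FPKM in CON (adjusted p = 0.322).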

How the data were processed

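RNA sequencing of liver gave 6 libraries, 3 LKO and 3 CON, grouped by their titles. The authors deposited FPKM per gene and library, and, per the submitters' processing notes, used HISAT2, StringTie and the mm9 build, with versions, annotation and strand setting not given in the sources used here. Whole reads were not recovered from FPKM times length (at best 14.6% to 17.2% of low values lay within 5% of a step, where chance gives 10%), so no count model was used and read depth is unknown. Of 56536 lines, 2 held no values.

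The 11104 genes averaging 1 FPKM or more were taken to log2(FPKM + 1), which understates the change of low genes, and tested on the whole table with limma 3.58.1 in R 4.3.3 (lmFit, eBayes with trend, two-sided, group as the only term, Benjamini-Hochberg, threshold 0.05). SE is limma's moderated standard error, and SD is over 3 libraries. Ratios of FPKM were tested by exact two-sided permutation. The length trend was removed per library by lowess with a span of 0.3 over the log of the deposited gene length. Further settings were median-ratio and quantile scaling, a pseudocount of 0.1, no filter, a filter at 5, removal of length and GC trends, array weights, a replicate block and each library left out. The steps were tested on simulated data.

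The members, lists and tests were chosen with earlier results of these data known. Named in full are the 6 catalytic subunits, the highest and lowest log2 fold change of each class of 3 or more, members under 1 FPKM, and up to 3 members of each pathway list with the smallest p. Psma2, Psmd2, Psmd10, Psmd11, Psmd14, Psme1, Psme3, Psmf1 and Pomp were added after their values were seen. Some genes that this rule names are not reported here. The pattern leaves out 6 similar names, Psmc3ip, Psme2b and 4 pseudogenes, each under 1 FPKM. Promoter windows came from RefSeq (GRCm38.p6), and exon overlaps from GENCODE M21, whose build differs from mm9.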

Additional observations from a re-analysis of the deposited data

How the results depend on the processing

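The count of subunits past the threshold (limma), 0 of 42, was 6 with array weights, 4 with the length trend removed and LKO 3 left out, and 0 to 3 with each library left out, the 3 being without LKO 3; it was 0 in the other 10 settings. The median log2 fold change relative to all genes, 0.20, was 0.031 with the length trend removed and LKO 3 left out and -0.0045 with no filter, where its reference is the median of 24934 genes. It was 0.12 to 0.25 with each library left out. The log2 ratio of Psmb8 over Psmb5 (-0.10) turned to 0.17 with the length trend removed, also within the replicate block, to 0.23 with length and GC trends removed, to 0.31 with the length trend removed and LKO 3 left out, and ran from -0.28 to 0.031 with each library left out, positive without CON 2. Psmb9 over Psmb6 (-0.31) turned to 0.0081 with the length trend removed, also within the replicate block, to 0.0050 with length and GC trends removed and to 0.12 with LKO 3 left out as well. The cause of these turns was not tested. Psmb10 over Psmb7 kept its direction in every setting run (0.57 to 1.03), and no setting removed the bases that Psmb7 shares with Nek6. Of the 42 subunits, 23 had the same sign relative to all genes in all 18 settings. Libraries with the same number did not deviate together (correlations of -0.05, 0.17 and 0.07 over the 11104 genes for numbers 1, 2 and 3), and with the number as a replicate block 0 subunits passed and the median was 0.20. The length and GC removal and the median-ratio scaling without LKO 2 (relative median 0.27, 0 passing) were added after the data were seen. Depth in reads is unknown, and 3 libraries a group limit the exact tests to p = 0.1.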
